A study of Schizosaccharomyces pombe with 22 samples.

Results

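The genes ubc4 and pub1 of the fission yeast Schizosaccharomyces pombe encode enzymes of the ubiquitin pathway, and the lariats and splice junctions of their transcripts are described here. Both genes were chosen by measured values, namely earlier results of the same data. ubc4 was selected on the high heat shock reads of its intron 1 and pub1 on the missing diauxic reads of its intron 2 and on an exon skip, so those values are given as a description with no test. The rows of both genes were found by gene identifier (SPBC119.02 for ubc4, SPAC11G7.02 for pub1) or by position inside the gene span on its strand. They came to 2 of the 2356 genes with a listed annotated intron, 4 of 4701 annotated introns, 16 of 3731 alternate branches, 2 of 230 exon skips, 1 of 8113 unannotated introns and 26 of 17799 branches in all.

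When an intron is removed, its 5′ end is joined to an adenosine near its 3′ end, the branch point, and the intron leaves as a loop with a tail, the lariat. The enzyme Dbr1 opens lariats, so that they persist in cells that lack it. Reads across the join place the 5′ splice site and the branch point of a single splicing event. Lariats were sequenced from total RNA of the dbr1 deletion in strain 972h-, with 12 libraries in 3 conditions, namely rich media, heat shock and diauxic shift (the change to respiration as glucose runs out). Each condition had 4 libraries, a long and a short gel fraction of 2 replicates, and the tables used here hold 1 sum per condition. Polyadenylated RNA was sequenced in 10 RNA-seq libraries, 1 each for wild type 972h- and its dbr1 deletion in every condition, and 2 each for ED668 cells with and without upf1. upf1 encodes the helicase of nonsense-mediated decay, which removes transcripts with an early stop codon. Cells grew at 30 °C outside heat shock, and the labels used here give no heat shock temperature or time. All lariat libraries carry the dbr1 deletion, so no lariat value here comes from cells that open lariats normally. Aligned reads of the lariat libraries, with exon and rRNA reads counted in, came to 53284863 for rich media, 9467948 for heat shock and 9854589 for diauxic shift. Aligned RNA-seq reads came to between 12330328 and 36500561 per library.

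Ubiquitin is passed from an activating enzyme to a conjugating enzyme (E2) and then, with the help of a ligase (E3), to a target protein, which is often sent to the proteasome. Ubc4 is an E2 of the family that serves the turnover of misfolded and short-lived proteins, as its budding yeast relatives do. Pub1 is an E3 of the HECT class, which takes ubiquitin onto itself before passing it on, and is related to Rsp5 of budding yeast and the Nedd4 ligases of animals. Transcript levels of the genes are not analysed here, so a higher number of transcripts and more lariat per transcript cannot be told apart.

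Both genes lie on the forward strand, with positions of the ASM294 genome. In the reference annotation ubc4 spans chromosome II, 715285 to 716311, and holds 2 introns inside its coding sequence of 148 codons with the stop. Intron 1 (715453 to 715531, 79 bases) follows 120 coding bases, and intron 2 (715610 to 715980, 371 bases) follows 198 coding bases. pub1 spans chromosome I, 3963066 to 3966172, and has exons of 274, 23, 145 and 2421 bases and a coding sequence of 768 codons with the stop. Its introns 1 (3963340 to 3963390) and 2 (3963414 to 3963464) have 51 bases each and follow 17 and 40 coding bases, and its intron 3 (3963610 to 3963751) has 142 bases and follows 185. The deposited lengths used below are 1 base above these, at 80 bases for ubc4 intron 1, 52 for pub1 introns 1 and 2 and 143 for pub1 intron 3, as for 4502 of the 4629 introns found in both annotations. Intron 2 of ubc4 is not listed among the annotated introns in the table used here and is known only through its alternate branches.

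The 4 listed introns are shown from 5′ to 3′ because the differences in length and branch site between them underlie the comparisons that follow. Capitals mark the first 6 bases, the 5 bases around each annotated branch point seen in the lariats (the branch point is the A before the last of the 5), and the last 2 bases.
ubc4 intron 1: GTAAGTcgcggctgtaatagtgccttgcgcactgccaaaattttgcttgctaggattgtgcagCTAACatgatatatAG
pub1 intron 1: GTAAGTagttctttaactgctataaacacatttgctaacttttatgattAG
pub1 intron 2: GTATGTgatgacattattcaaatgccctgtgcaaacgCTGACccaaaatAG
pub1 intron 3: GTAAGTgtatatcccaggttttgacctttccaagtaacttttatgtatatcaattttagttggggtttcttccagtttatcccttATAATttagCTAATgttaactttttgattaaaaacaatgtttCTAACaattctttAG
The sequences were read from the RefSeq genome of build ASM294v3. On that build, all 17799 branches of the series had GT at the 5′ splice site and A at the branch point.

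The splice sites of both genes were of common kinds. GTAAGT, the start of ubc4 intron 1 and of pub1 introns 1 and 3, began 30.4% of the 2812 introns with lariat reads, and GTATGT, the start of pub1 intron 2, began 22.1%. The branch site CTAAC of ubc4 intron 1 and of the main site in pub1 intron 3 stood at 49.2% of the most used branch points. CTGAC, used in pub1 intron 2, stood at 4.98%. From the branch point to the 3′ end there were 12 bases in ubc4 intron 1, 10 in pub1 intron 2 and 11 in pub1 intron 3, against a median of 12 over 2774 introns, whose middle 50% lay between 10 and 14.

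Intron 1 of ubc4 gave more lariat reads in heat shock than rich media, although the heat shock libraries held fewer branch reads at annotated introns (414698 against 1253548). It had 1552 rich media reads, 1894 heat shock reads and 508 diauxic reads, all at 1 branch point (715519). Per 10000 annotated branch reads of the condition, the level was 12.4 for rich media (95% counting interval 11.77 to 13.01), 45.7 for heat shock (43.6 to 47.8) and 3.99 for diauxic shift (3.65 to 4.35). Heat shock was highest and diauxic shift lowest, and the 3 counting intervals did not overlap. By level the intron stood at place 204 of 4701 for rich media, 39 for heat shock and 379 for diauxic shift. The scaled ratio was 3.69 for heat shock over rich media (3.45 to 3.95), 0.322 for diauxic shift over rich media (0.291 to 0.356) and 11.5 for heat shock over diauxic shift (10.4 to 12.7). These intervals cover counting error only, because copies made by PCR count as separate reads and the spread between replicates is not in the sums. The diauxic ratio turned to 1.77 when conditions were scaled by all aligned reads of the lariat libraries. It was 0.757 with TMM scaling, so its direction rests on the scaling. The other 2 ratios stayed above 1 under each of these scalings.

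pub1 intron 2 had 119 lariat reads from rich media, 2 from heat shock and 0 from diauxic shift, all at the branch point 3963454. These are 0.949 per 10000 annotated branch reads (0.786 to 1.14), 0.0482 (0.00584 to 0.174) and 0. In diauxic shift 3 reads, set here as the bound for a count of 0, would be 0.0236. The rich media level was above the intervals of the other conditions, which overlapped each other. The scaled ratio of heat shock over rich media was 0.0508 (0.00608 to 0.188). In diauxic shift the intron would be 40.3-fold lower than in rich media with 3 reads set in place of 0 over the condition. The exact interval of this ratio, which also covers the error of the rich media count, reached up to 0.0310. After scaling by all aligned reads of the lariat libraries the intron would be 7.34-fold lower with 3 reads in place of 0. pub1 intron 1, of the same length, had no lariat read in any condition.

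pub1 intron 3 had 217 reads from rich media, 128 from heat shock and 224 from diauxic shift, or 1.73 (1.51 to 1.98), 3.09 (2.58 to 3.67) and 1.76 (1.54 to 2.00) per 10000 annotated branch reads. Its heat shock level lay above the other conditions, which overlapped. The scaled ratios were 1.78 for heat shock over rich media (1.42 to 2.23), 1.02 for diauxic shift over rich media (0.839 to 1.23) and 1.76 for heat shock over diauxic shift (1.40 to 2.19). The last turned to 0.595 when scaled by all aligned reads of the lariat libraries, and the diauxic ratio rose to 5.58 under that scaling. Between introns 2 and 3 of 1 transcript, the diauxic values thus ranged from no read to about the rich media level.

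**Figure D1:**
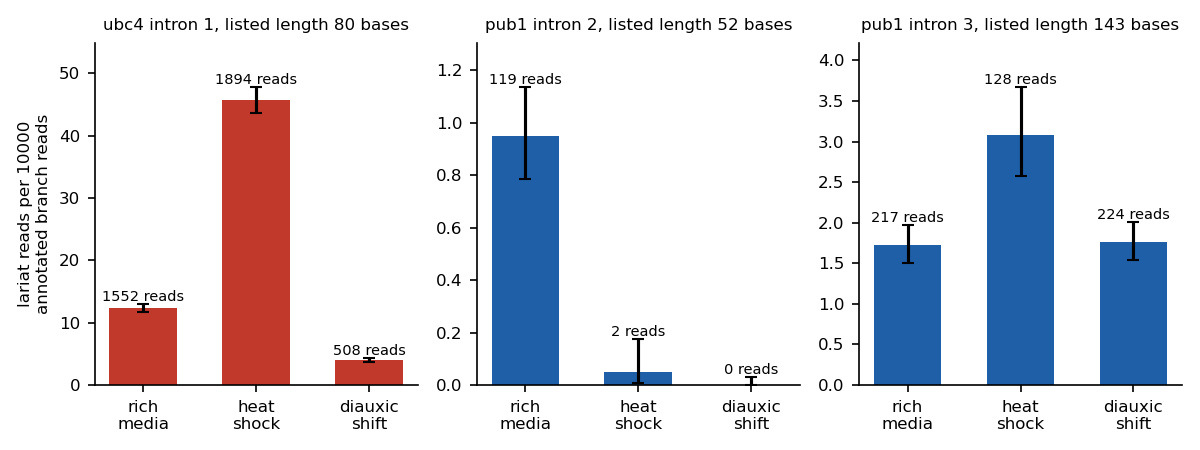
Lariat reads per 10000 annotated branch reads of the condition (vertical axis, a scale of its own in each panel) for ubc4 intron 1, pub1 intron 2 and pub1 intron 3 in rich media, heat shock and diauxic shift, with exact 95% counting intervals as bars and the raw reads printed above. ubc4 intron 1 is highest in heat shock at 45.7, and pub1 intron 2 is seen almost entirely in rich media, at 0.949.

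In the comparisons with rich media, ratios of lariat reads tended to follow intron length, with a wide spread at any length. Each intron was therefore set against others of like length. For every intron with at least 50 reads in the higher condition, the median log2 ratio of raw reads over 50 introns on each side in order of length was subtracted, which also removes any common scaling. The log2 ratio rose with length with a Spearman coefficient of 0.815 across 1299 introns for heat shock over rich media and 0.823 across 1338 for diauxic shift over rich media, against -0.03 across 968 for heat shock over diauxic shift. These coefficients are across introns, which share the same libraries and gel fractions.

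Against introns of like length, ubc4 intron 1 was among the highest in heat shock. The raw log2 ratio of heat shock over rich media was 0.29 where the length predicted -2.70, a difference of 2.98 (counting interval 2.89 to 3.08), or 7.91-fold. It ranked 5th of 1299 introns, where 13.4% lay more than 2-fold above their length and 15.9% more than 2-fold below. Of 192 introns within 5 bases of its length it was second to an intron of SPBP8B7.32, and the middle 50% of those introns had log2 ratios between -3.39 and -2.09. The contrast was among those that chose the gene, so nothing is read from its rank. For diauxic shift over rich media the intron lay 1.03 above its length on the log2 scale (0.88 to 1.17), at rank 202 of 1338, where 15.3% were more than 2-fold above and 18% more than 2-fold below. For heat shock over diauxic shift it lay 1.87 above (1.73 to 2.02), at rank 45 of 968, with 15.8% of introns more than 2-fold above and 15% more than 2-fold below. The raw log2 ratio of diauxic shift over rich media was -1.61, where -2.64 was the value at its length.

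The 4 other introns of 80 bases with the most reads show what that length did elsewhere. ubp5 intron 2, of a deubiquitinase gene, had 8478 rich media, 2685 heat shock and 3381 diauxic reads. pcs60 intron 1 had 5310, 1792 and 1884 reads in the same order. ckb1 intron 1, of a casein kinase 2 subunit gene, had 2060, 265 and 419, and SPAC630.06c intron 1 had 1805, 238 and 251. All 4 had fewer reads in heat shock than in rich media, where ubc4 had more.

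In heat shock over rich media, neither pub1 intron with reads lay as far from its length as ubc4 intron 1. pub1 intron 2 lay at -0.98 from its length on the log2 scale for heat shock over rich media, with a counting interval from -4.36 to 0.59 that holds 0. For diauxic shift over rich media it lay at -1.96 with a pseudocount of 0.5, at rank 61 from the bottom of 1338. With 3 reads in place of 0 it would lie 0.63 above its length, so these reads do not place it on either side. Of the 99 introns within 5 bases of its length that passed the read limit, 29 had no diauxic read. Among 4 other introns of 52 bases with the most reads, ptl1 intron 1 had 374 rich media, 10 heat shock and 12 diauxic reads. pef1 intron 1 had 347, 14 and 6, pab2 intron 1 had 272, 9 and 6, and cyp3 intron 4 had 207, 9 and 0. All 4 had most of their reads in rich media, as had pub1 intron 2. Introns this short mostly met the read limits through rich media. The choice of introns therefore favours this likeness and the count of 29, and nothing is read from them.

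pub1 intron 3 lay at -0.88 from its length for heat shock over rich media (-1.20 to -0.56), -0.18 for diauxic shift over rich media (-0.45 to 0.10) and -0.68 for heat shock over diauxic shift (-1.01 to -0.37). None of the 3 differences reached 2-fold, but the first did at -1.02 against introns within 5 bases and at -1.14 with introns ordered by loop length. Of the introns of 143 bases with the most reads, snd302 intron 1 had 348 rich media, 370 heat shock and 434 diauxic reads. SPCC18.10 intron 2 had 512, 260 and 370, rfc5 intron 2, of a replication factor C subunit gene, had 250, 271 and 221, and srp21 intron 2, of a signal recognition particle gene, had 165, 235 and 179. In raw reads, SPCC18.10 intron 2 had fewer in heat shock than in rich media, as had pub1 intron 3, and the other 3 had more.

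**Figure D2:**
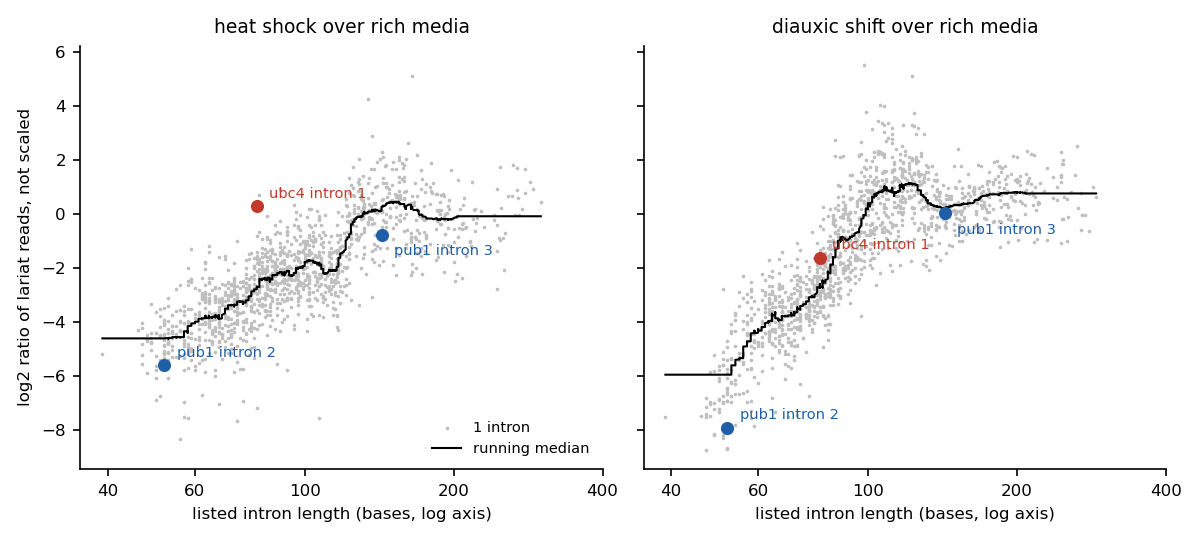
Raw log2 ratio of lariat reads (vertical axis, pseudocount 0.5) against listed intron length in bases (log axis) for introns with at least 50 reads in the higher condition, heat shock over rich media on the left and diauxic shift over rich media on the right. Grey points are introns, the black line is the running median over 50 introns on each side, and coloured points are ubc4 intron 1, which lies 2.98 above the line on the left, and pub1 introns 2 and 3.

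Short and long introns were also set side by side within a gene. In 18 genes, pub1 among them, an intron of 47 to 57 bases with enough reads stood beside one of at least 100 bases. Each intron had to have at least 50 reads in rich media, and all short introns but that of msw1 had 50 only there. This choice favours low ratios in the short introns. The diauxic value of pub1 intron 2 is also one that chose the gene, so the values are a description. The long intron had the higher log2 ratio in 18 of 18 genes for heat shock over rich media, by a median of 4.39 (2.10 to 7.72), with pub1 at 4.82. It was higher in 18 of 18 for diauxic shift over rich media as well, by a median of 6.61 (2.73 to 8.27), with pub1 at 7.95. pub1 was 6th in the first and 2nd in the second. The long and short gel fractions are summed in the deposited columns, and their part in this difference was not tested.

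**Figure D3:**
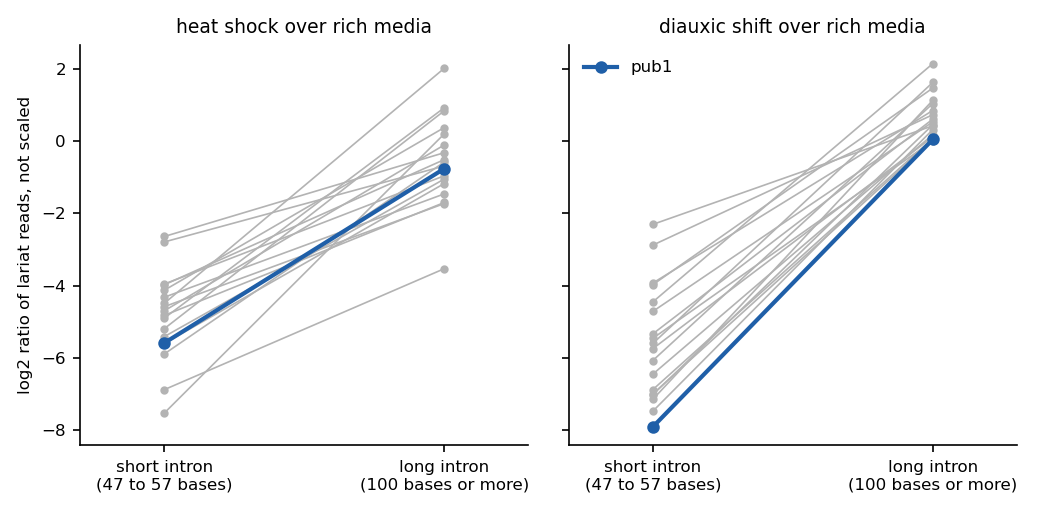
Raw log2 ratio of lariat reads (vertical axis, pseudocount 0.5) of a short and a long intron in the same gene, joined by a line, for 18 genes, with heat shock over rich media on the left and diauxic shift over rich media on the right. pub1 is in blue, and in every gene the long intron has the higher ratio.

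The introns whose heat shock and diauxic differences from their length came nearest to those of ubc4 intron 1 were sought among 965 introns with at least 200 reads in all. The nearest was rpp101 intron 1, a gene of a ribosomal stalk protein, with 35 rich media, 260 heat shock and 51 diauxic reads, at a distance of 0.81 in log2 units. osh6 intron 3 followed at 0.98, then SPAC2F3.18c intron 2 at 1.06 and SPAC5D6.04 intron 3 at 1.13. For pub1 intron 3 the nearest, miy1 intron 2, lay at 0.036, and for pub1 intron 2 the nearest, SPCC18.10 intron 3, also lay at 0.036. These distances use the heat shock value that chose ubc4 and, for pub1 intron 2, a diauxic value set by the pseudocount, so they are a description only.

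Within pub1 intron 3, the reads counted as annotated fell on 3 branch points, whose use took no part in the choice of the gene. The main branch point, 3963740, had 209 of 217 rich media reads, 127 of 128 heat shock reads and 210 of 224 diauxic reads. The second, 3963707, the CTAAT of the sequence above, had 4 reads in rich media (1.84%, Wilson interval 0.719 to 4.64), 0 in heat shock, which allows a share of up to 2.34%, and 14 in diauxic shift (6.25%, 3.76 to 10.2). The third, 3963698, an ATAAT, had 4, 1 and 0 reads. Fisher's exact test of the second against the main branch point gave an adjusted p of 0.0187 for heat shock against diauxic shift (p = 0.00283), 0.136 for diauxic shift against rich media (p = 0.0285) and 0.580 for heat shock against rich media (p = 0.301), adjusted over 224 introns by Benjamini and Hochberg. The same two-sided test called 21% of those introns for heat shock against diauxic shift, 15.2% for diauxic shift against rich media and 16.5% for heat shock against rich media. It compares the reads of these summed libraries and not the conditions. The intron met the limit of 10 reads at the second branch point only through diauxic shift, so its call is given as a description. The reads taking the second branch point rather than the main one would make a loop of 98 in place of 131 bases. The 33 bases between these branch points were the 4th widest gap of the 224 introns, whose median gap was 5 bases.

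ubc4 intron 1, with its single annotated branch point, belonged to 220 of the 679 introns with at least 500 reads (32.4%) in which no other annotated one was seen. Branch points of alternate introns, of which ubc4 intron 1 had 2 with 2 reads each, are not counted here. Of the 175 introns with at least as many reads as ubc4 intron 1, 34 had a single annotated branch point.

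pub1 intron 1 gave no lariat read although its sequence holds a CTAAC whose branch adenosine would lie 13 bases before the 3′ end. Introns of exactly 52 listed bases numbered 120, and 64 of them had no reads either. Within 5 bases of that length, 45.0% of 1312 introns had reads, against 96.4% of 276 introns within 5 bases of 80 and 98.5% of 68 within 5 bases of 143. Among introns within 2 bases of its length, searched on their own strand in the last 25 bases, 49.4% of 257 with CTAAC had reads. The share was 43.9% of 41 with CTGAC and no CTAAC, and 48.1% of 310 with neither, so these motifs separated the short introns little.

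Lariats that join the 5′ site of 1 intron to the branch point of the next were listed as skips of the exon between them. Whether mRNA without that exon was made was not tested. pub1 had such lariats for both of its inner exons, and 29 of 190 genes with a skip had 2 or more. Exon 2, of 23 bases, is among the shortest skipped exons: 24 of 230 skips involved an exon that short or shorter.
pub1 exon 2: ATCTCGTCGAATTCGAGTAACAA
The skip of exon 2 had 2 reads, both in rich media, which gave a share of 1.65% there with the 119 reads of intron 2 and none of intron 1 (Wilson interval 0.454 to 5.83). In heat shock the host introns had 2 reads and in diauxic shift none, so no share can be compared between conditions. The skip of exon 3, of 145 bases, had 1 read in rich media (0.297%, 0.0524 to 1.66), 0 in heat shock, which allows up to 2.31%, and 1 in diauxic shift (0.444%, 0.0785 to 2.47). The intervals overlapped and the counts of 1 and 2 reads show no difference between conditions. Among 71 skips whose hosts had at least 100 reads, the exon 2 skip was 7th and the exon 3 skip 31st by share, with a median of 0.210%. Each skip had 2 reads in all and pub1 was chosen on an exon skip, so nothing is read from these ranks. The loops of these skips have 115 and 327 bases, against 41 in pub1 intron 2, so the length effect above bears on their reads differently from those of their hosts. Its part in the shares was not tested. Joined in this way, the coding sequence would run for 9 codons before a stop without exon 2 and for 39 without exon 3, of 767 in pub1.

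Lariat reads from the 5′ site of ubc4 intron 2 were placed at many branch points, each with few reads. Joined to the annotated 5′ site were 11 branch points with 1 to 3 reads each and 20 in all, namely 6 from rich media, 2 from heat shock and 12 from diauxic shift. The authors placed their 3′ ends at 6 sites, 126 to 275 bases before the annotated one. No RNA-seq library had a read across a junction to any of these 6 sites. Whether the branches came from splicing was not tested. The first part of the intron (715610 to 715800) is shown with the first 6 bases and the adenosine of each branch point in capitals.
ubc4 intron 2, first part: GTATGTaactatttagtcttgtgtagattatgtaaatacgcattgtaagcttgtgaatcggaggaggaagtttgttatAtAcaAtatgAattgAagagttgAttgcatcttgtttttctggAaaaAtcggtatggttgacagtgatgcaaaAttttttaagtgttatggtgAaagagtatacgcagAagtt
ubc4 intron 2, end: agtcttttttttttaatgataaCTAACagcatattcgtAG
None of the 11 sites matched CTNAN, the pattern at 81.7% of the most used branch points of annotated introns and at 40.4% of 3731 alternate branches. The only CTAAC of the intron stands in the end part (715941 to 715980, capitals at CTAAC and the last 2 bases), with its adenosine 14 bases before the 3′ end, and had no read. CTAAC occurs in 44.3% of 5354 introns of the reference, on the intron's own strand. Only 8 of the 1276 5′ sites with alternates had more branches than the 11 of ubc4 intron 2, and 59.6% had 1. Few introns of this length were seen in these libraries: of 8 listed introns within 20 bases of its length, 4 had reads, and the highest had 2. The reads of ubc4 intron 2 were 0.385% of those of both ubc4 introns in rich media (0.177 to 0.838), 0.105% in heat shock (0.0289 to 0.384) and 2.31% in diauxic shift (1.32 to 3.99). The low heat share goes with the high heat shock reads of intron 1, for which ubc4 was chosen. The loops of the intron 2 branches have 79 to 187 bases, against 67 in intron 1. The length effect above therefore bears on the 2 introns differently, and its part in the shares was not tested. Taken alone, the reads of intron 2 gave a scaled ratio of diauxic shift over rich media of 1.97 (0.684 to 6.39), an interval that holds 1.

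**Figure D4:**
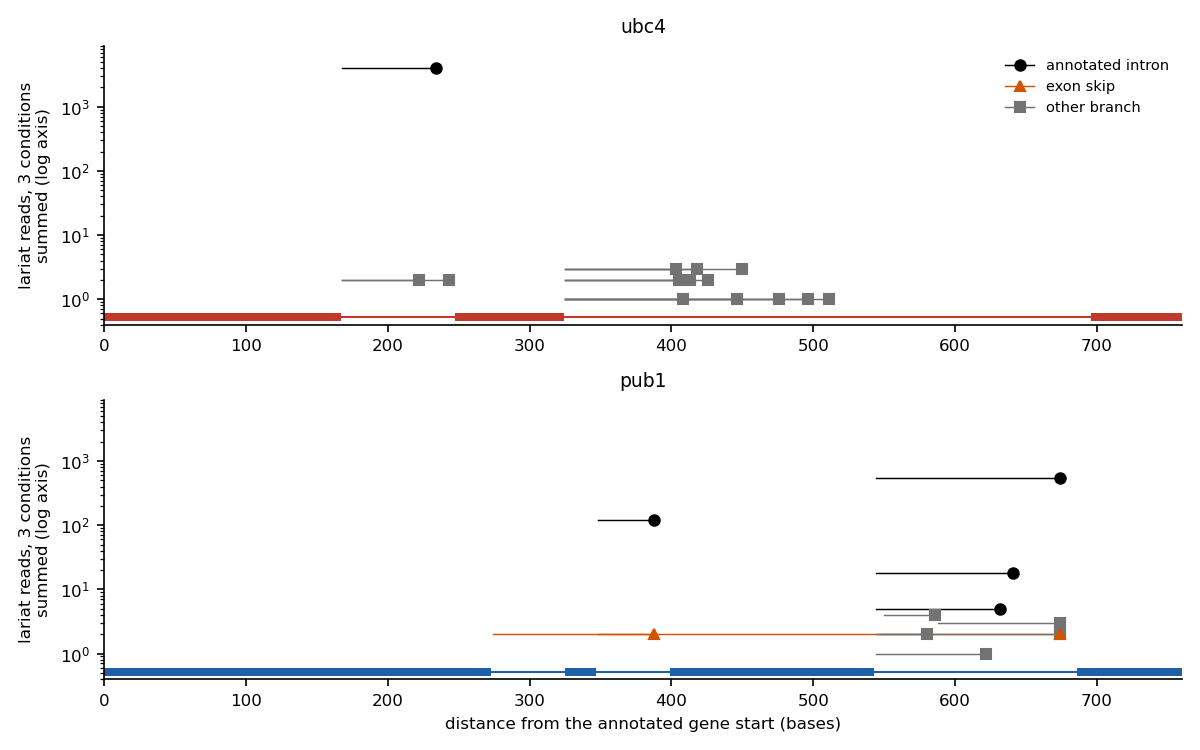
Branches of ubc4 (top) and pub1 (bottom) along the first 760 bases of each gene (horizontal axis, bases from the annotated start), at the height of their lariat reads summed over 3 conditions (log axis), with a line from the 5′ splice site to the branch point, and exons as thick bars. The annotated branches reach 3954 reads in ubc4 and 546 in pub1, all others have at most 4, and 11 of them leave from the 5′ site of ubc4 intron 2.

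The remaining branches were as rare. ubc4 intron 1 had 2 alternates of 2 reads each, with 3′ ends 16 bases before and 8 bases after the annotated one. They made up 0.101% of its reads (0.0393 to 0.260). pub1 intron 3 had 2 alternate 3′ ends with 3 reads, 0.524% (0.179 to 1.53), and pub1 intron 2 had 0 of 121, which allows up to 2.48%. Of 1226 host introns with at least 100 reads, 441 had a higher share than ubc4 intron 1, 286 a higher share than pub1 intron 3, and 659 had no alternate. A 5′ site 44 bases inside pub1 intron 3 (3963654) gave 3 reads in rich media, joined to the main branch point. An unannotated intron of 221 bases near the end of pub1 (3965713 to 3965933) had 2 diauxic reads and would take out the stop codon, leaving 731 codons before another.

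Read through, each alternate of ubc4 would end the reading frame after 42 to 99 codons, against 147 in the annotated mRNA, and each alternate of pub1 intron 3 after 62 to 115. Retention of an intron would end it after 63 or 81 codons in ubc4 and 6, 15 or 62 in pub1. These stops are read from the reference sequence, and no transcript was followed here.

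In RNA-seq the alternate junctions of both genes were at the limit of what could be seen. Of 11 such junctions 2 had a read, against 811 of 2942 in the whole series (27.6%), and none had more than 1 read in a library. The alternate 3′ end of ubc4 intron 1 at 715539 had 1 read in the dbr1 deletion in diauxic shift and 1 in the first library of the upf1 deletion. The alternate 5′ site of pub1 at 3963654 had 1 read in wild type in diauxic shift. The libraries of the other groups had none, so no difference between conditions or with upf1 was detectable at this depth. Junctions of the annotated introns of ubc4 and pub1 are not analysed here.

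The ubiquitin pathway around both genes was taken as a list of 92 symbols of ubiquitin, E1, E2 and E3 enzymes, deubiquitinases, the anaphase-promoting complex and the Cdc48 segregase, of which 51 genes had a listed intron and 39 had lariat reads. ubc4 was 6th of the list by all reads and 2nd by heat shock reads. ubc4 was chosen on its heat shock reads, so its place by them and in the heat shock comparisons is a description. Each gene was counted by its most read intron that passed the limit. In heat shock over rich media 15 of 28 genes lay above introns of like length and 12 below, with a median of 0.07 on the log2 scale, beside 538 above and 501 below of 1049 genes in all, with a median of 0.02. More than 2-fold above lay 3 of the 28 (10.7%, against 13.6% of all genes), of which ubc4 was the highest at 2.98, and more than 2-fold below lay 4 (14.3%, against 15.2% of all genes). Both shares were near those of all genes.

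The deubiquitinase gene ubp5, which has the most reads of the list, lay 1.03 above its length in heat shock and mot2, of a RING ligase in the CCR4-NOT complex, 1.10 above with 440 rich and 207 heat shock reads. rhp6, the E2 that acts on histone H2B, lay at -1.37 with 94 rich and 10 heat shock reads, and dsc1, of a Golgi ligase, at -1.37 with 75 and 2. cut20 of the anaphase-promoting complex lay at -1.03 with 6709 and 742 reads. The other E2 genes that were counted lay below ubc4, with ubc15 at 0.06, ubc6 at -0.17, ubc14 at -0.69, ubc11 at -0.72 and ubc13 at -0.84. The heat shock value of ubc4 chose the gene, so nothing is read from this order. pub2, the close relative of pub1, lay at 0.08, where pub1 intron 3 lay at -0.88.

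In diauxic shift the list lay mostly above its length. Above were 22 of 29 genes and below 7, with a median of 0.41, beside 545 above and 525 below of 1077 genes with a median of 0.02. More than 2-fold above were 10 of the 29 (34.5%), against 15.6% of all genes, and none was more than 2-fold below. Without ubc4 and pub1 the count was 21 above and 6 below. Of the 10 genes, ubc15 at 1.01, rbx1 at 1.02 and ubc4 at 1.03 lay just past 2-fold. The list was chosen with earlier results of these data known, so the counts are a description and were not tested. ubp15 led at 1.46 with 691 rich and 3343 diauxic reads, followed by nuc2 of the anaphase-promoting complex at 1.39 with 51 and 237, ubp2 at 1.35 with 157 and 124 and ubp8 at 1.33 with 1110 and 3659. cul1, the scaffold of SCF ligases, lay at 1.26 with 2237 and 5230 reads. ubc4 at 1.03 was within this group, and pub1 intron 3 at -0.18 was one of the 7 below.

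For heat shock over diauxic shift 3 of 22 genes lay above their length and 19 below, with a median of -0.62, beside 417 below and 416 above of 842 genes. ubc4 at 1.87 was the highest, and pub2 at 0.24 and sst2 at 0.20 were the others above. The heat shock reads that chose ubc4 enter its value, so nothing is read from its place. The lowest were rhp6 at -1.62, ubc14 at -1.04 and ubc13 at -1.02. This comparison shares its libraries with the other 2, so its direction is no separate result.

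**Figure D5:**
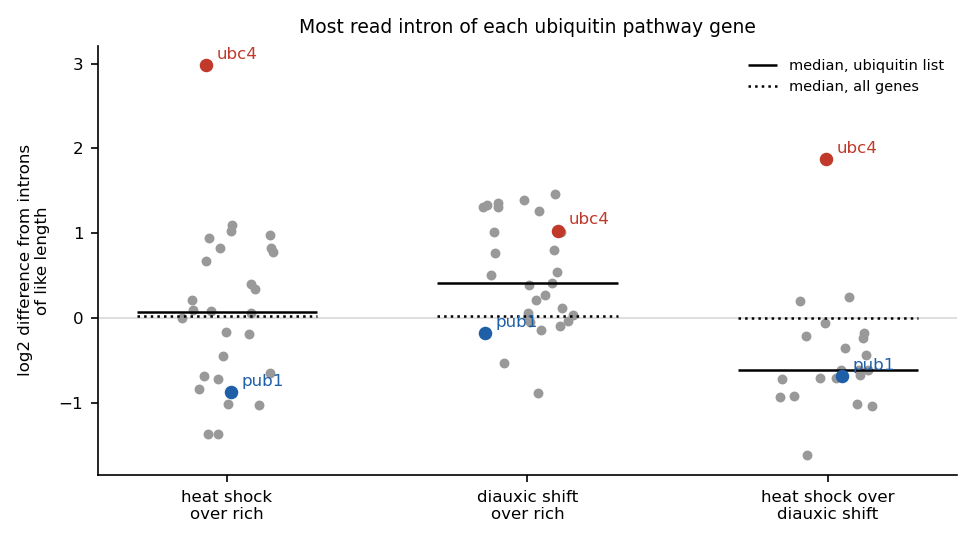
Log2 difference from introns of like length (vertical axis) for the most read intron of each ubiquitin pathway gene with enough reads, in 3 comparisons (28, 29 and 22 genes). Each point is a gene with ubc4 in red and pub1 in blue, the solid line is the median of the list (0.07, 0.41 and -0.62) and the dotted line that of all genes.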

How the data were processed

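Lariat values are whole-number counts of branch reads per 5′ splice site, branch point and condition, deposited by the authors as sums over the 4 libraries of a condition. RNA-seq junction counts per library were deposited as whole numbers. Fractions of reads headed PSI are not used here. Other deposited values are intron lengths, positions and the read classes of the lariat libraries. The protocol kept no strand, per the labels, and the strand follows from the splice sites. The submitters' processing notes name the build ASM294v2, and no aligner is named in the sources used here. Sequences and gene models came from RefSeq ASM294v3.

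Levels are per annotated branch reads of their condition. Ratios carry exact conditional binomial 95% intervals and shares Wilson intervals, which cover counting error only. A count of 0 was bounded with 3 reads in its place, which for the bounds given here lies below the upper end of the 95% intervals. Introns needed 50 reads in the higher condition, and condition reads that add up to their total. Those set side by side within a gene needed 50 reads in rich media. Branch point use was tested with Fisher's exact test (two-sided) where the second branch point had at least 10 reads, called at an adjusted p below 0.05. Replicate tests with edgeR on junctions, planned for the RNA-seq, were not run. No alternate or unannotated junction of either gene had more than 1 read in a library, and junctions of their annotated introns are not analysed here. TMM factors came from edgeR 4.0.16 in R 4.3.3. The remaining steps used Python 3.11.15 with SciPy 1.17.1, pandas 2.3.3, NumPy 2.4.6, statsmodels 0.14.6 and matplotlib 3.10.9. The length adjustment and intervals were tried on simulated counts with counting error only. The simulation held no spread between replicates and no copies made by PCR, so it does not bear on those.

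The genes, the ubiquitin list and the tests were chosen with earlier results of these data known. Named were all introns, branches and junctions of both genes, up to 4 listed pathway genes with the most reads and up to 4 with the largest difference in each comparison, the 4 most alike introns and the 4 most read introns of the same length. The E2 genes, cul1, pub2 and sst2 were also named after their values were seen. Of 92 listed symbols 87 matched the name table.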

Additional observations from a re-analysis of the deposited data

Results flagged for a closer look

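A pair of sites in pub1 had reads outside the classes that the comparisons used. A branch from a 5′ site inside intron 3 (3963616) to an adenosine (3963652), a loop of 37 bases, had 4 reads. Of these, 3 were from rich media and 1 from diauxic shift. It was flagged for having more than 3 reads in all, a cutoff that is no limit of detection. It stands in the table of all branches and in none of the tables of annotated, alternate, skipped or unannotated introns. A second such branch (3963614 to 3963740) had 2 reads, both in heat shock, and did not pass that cutoff. Neither site pair was tested.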

How the results depend on the processing

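The scaled ratios moved with the scaling, which the differences from introns of like length remove by construction. All aligned reads of the lariat libraries, and then TMM, served as other scalings. The ubc4 intron 1 ratios were then 6.87 and 4.68 for heat shock over rich media. They were 1.77 and 0.757 for diauxic shift over rich media, reversed by the first, and 3.88 and 6.17 for heat shock over diauxic shift. For pub1 intron 3 they were 3.32 and 2.26, 5.58 and 2.39, and 0.595 (reversed) and 0.946 in the same order. With 3 diauxic reads in place of 0, pub1 intron 2 became 7.34-fold and 17.1-fold lower, and its heat shock ratio stayed within its interval under both. The cause of these shifts is the scaling itself, since the heat shock and diauxic amounts relative to rich media are 0.331 and 1.02 by annotated branch reads, 0.178 and 0.185 by aligned reads, and 0.261 and 0.432 by TMM. Under 8 other settings (windows of 25 or 100 introns on each side, introns within 5 bases, read limits of 20 or 100, a pseudocount of 1, ordering by loop length, and introns with incomplete condition reads kept, the last 2 chosen after seeing the data), ubc4 intron 1 ranged from 2.84 to 3.07, 0.98 to 1.16 and 1.73 to 1.96. Only the loop length value of 2.84 left its interval. pub1 intron 3 ranged from -1.14 to -0.87, -0.35 to -0.15 and -0.86 to -0.60. pub1 intron 2 ranged from -1.25 to -0.86 and, for the diauxic comparison, from -3.15 to -1.23. Ubiquitin list counts in diauxic shift ranged from 19 to 25 above and 5 to 8 below, and in heat shock over diauxic shift a limit of 20 reads gave 5 above in place of 3. With the mean of the host introns in the denominator, the pub1 skips took 3.20% and 0.576%.

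No paired analysis was possible because the lariat columns hold 1 sum per condition and no alternate or unannotated junction of either gene had enough reads to fit. For the same reason lariat replicates could not be left out, and the planned edgeR, DESeq2 and leave-one-out alternatives on junctions were not run. Depth limits the pub1 skips, the ubc4 intron 2 branches and the RNA-seq junctions, which rest on 1 to 4 reads each.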
